A study of Rattus norvegicus with 6 samples.

Results

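Genes for potassium channel subunits were followed in cultured oligodendrocyte progenitor cells (OPCs) of the rat, glia that divide and mature into myelin-making oligodendrocytes. The set was chosen by gene symbol: Kcn genes with family letters and a number, the Kcnip genes, Kctd12 and the Hcn genes. It holds 86 of the 13355 genes tested, each read by 1 probe set. No Kctd12 probe was matched, and the 1 probe set listed for both Kcnk16 and Kcnk5 was left out because it carries several symbols.

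The study compared 3 control arrays with 3 fibrinogen arrays. The control RNA is labelled as coming from unstimulated OPCs, with 48 h in the titles. The other arrays carry RNA of OPCs given fibrinogen, the plasma protein that forms clots, for 48 h in differentiation medium. All cells came from pups of postnatal day 1 to 2 and recovered for 2 days in medium with PDGF and NT3. The medium of the controls, the strain and the dose are not given in the labels. If the controls were kept in another medium, its effect cannot be told apart from that of fibrinogen. Nothing in the labels says whether the arrays of a group came from separate cultures, so p-values measure the spread between these arrays, which may be technical.

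Potassium channels let potassium cross the membrane down its gradient and so set the resting potential. Pore subunits of the voltage-gated (Kv) families open on depolarisation, inward rectifiers (Kir) and tandem-pore channels carry current at rest, and auxiliary subunits change the gating and surface delivery of the pores. OPCs are known for large outward Kv currents, which shrink as the cells mature, while the inward rectifier Kir4.1 is a resting channel of both progenitors and oligodendrocytes.

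All values are log2 expression, and fold changes are fibrinogen minus control on that scale with the moderated standard error (SE). A gene was called when its adjusted p in limma, with Benjamini-Hochberg adjustment over all 13355 genes, lay under 0.05. Intervals are 95% intervals of a single gene, not adjusted for the number of genes, so an interval can leave out 0 for a gene that did not pass. Group values are means ± SD over 3 arrays. Of all genes, 555 were called higher (4.16%) and 401 lower (3%); when every array was centred on its median, the split was 434 higher and 516 lower. That centring took the median change over all genes from 0.0033 down to -0.043.

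The labelled cell type was checked against marker lists. All 6 measured progenitor markers lay above the median probe set of the arrays, and so did all 5 measured oligodendrocyte markers. Of the microglia, endothelium, pericyte and fibroblast and Schwann cell markers measured (6, 2, 5 and 2 genes), Cd68 and Col1a1 alone lay above it. Of 8 neuron and 7 astrocyte markers, 7 and 6 lay above it, beside 56.5% of all genes tested. Gja1, Rbfox3 and Col1a1 lay close to that line of 5.81, at 5.81, 5.87 and 5.94.

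Promoter windows are shown for 4 of the 7 members that changed with fibrinogen and for Kcnj10, the member with the brightest probe set, so that their sequence stands beside their values. Each window runs from 250 bases before to 50 bases after the RefSeq start, in build GRCr8, on the strand of the gene. They are chr3:135195361-135195660 (minus strand) for Kcnip3, chrX:110727800-110728099 (minus) for Kcne5, chr2:195626066-195626365 (plus) for Kcnd3, chr1:106038997-106039296 (plus) for Kcnc1 and chr13:87334260-87334559 (plus) for Kcnj10. Capitals mark matches, on either strand, to GGGCGG (the GC box of SP1 factors), GGCGCC (a GC-rich element of BMP-SMAD targets), CAGCTG (an E-box of bHLH factors) and TATAAA (the TATA box). In Kcnc1, 1 GGGCGG match and 1 GGCGCC match share a base.
Kcnip3: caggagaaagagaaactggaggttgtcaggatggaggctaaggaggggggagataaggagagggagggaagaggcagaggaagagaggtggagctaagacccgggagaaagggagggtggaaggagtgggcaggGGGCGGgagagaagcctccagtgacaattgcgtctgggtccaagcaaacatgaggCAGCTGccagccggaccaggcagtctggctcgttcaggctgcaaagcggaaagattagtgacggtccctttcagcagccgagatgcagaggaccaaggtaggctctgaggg
Kcne5: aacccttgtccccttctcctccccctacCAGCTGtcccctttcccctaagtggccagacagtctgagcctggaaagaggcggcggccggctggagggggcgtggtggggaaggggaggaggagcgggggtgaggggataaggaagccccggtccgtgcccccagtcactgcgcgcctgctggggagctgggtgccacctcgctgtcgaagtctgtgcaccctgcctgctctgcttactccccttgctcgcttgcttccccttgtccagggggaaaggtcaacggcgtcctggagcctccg
Kcnd3: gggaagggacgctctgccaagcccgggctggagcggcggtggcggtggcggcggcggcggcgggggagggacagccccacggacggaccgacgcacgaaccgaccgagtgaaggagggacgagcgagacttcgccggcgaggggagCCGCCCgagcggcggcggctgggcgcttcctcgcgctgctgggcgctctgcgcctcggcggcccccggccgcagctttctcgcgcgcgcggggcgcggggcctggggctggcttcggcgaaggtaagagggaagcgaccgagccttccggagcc
Kcnc1: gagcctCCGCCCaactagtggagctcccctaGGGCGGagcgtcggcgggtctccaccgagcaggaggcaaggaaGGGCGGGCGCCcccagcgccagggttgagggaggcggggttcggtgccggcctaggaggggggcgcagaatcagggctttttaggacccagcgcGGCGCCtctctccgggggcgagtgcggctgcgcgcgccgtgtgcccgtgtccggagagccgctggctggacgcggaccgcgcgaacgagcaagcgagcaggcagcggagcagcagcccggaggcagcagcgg
Kcnj10: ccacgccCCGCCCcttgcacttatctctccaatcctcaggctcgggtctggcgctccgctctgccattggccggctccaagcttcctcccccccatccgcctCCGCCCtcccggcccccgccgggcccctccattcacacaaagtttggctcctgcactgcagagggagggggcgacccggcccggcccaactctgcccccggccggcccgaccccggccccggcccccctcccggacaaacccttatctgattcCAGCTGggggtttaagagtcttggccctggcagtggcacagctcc

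None of the 5 windows held TATAAA. The Kcnc1 window held 3 GGGCGG and 2 GGCGCC matches, and the Kcnj10 window 2 GGGCGG and 1 CAGCTG. The Kcnip3 window held 1 GGGCGG and 1 CAGCTG, the Kcnd3 window 1 GGGCGG and the Kcne5 window 1 CAGCTG. Over all 33469 windows in the RefSeq table, 33.1% held GGGCGG, 11.0% GGCGCC, 15.1% CAGCTG and 14.2% TATAAA. In the 65 windows of the 59 members with an entry, the shares were 50.8%, 20.0%, 26.2% and 3.1%, beside 53.3%, 17.9%, 16.6% and 9.8% in the windows of all genes tested. The median GC content was 69.3% for windows of members above the array median and 57.5% for those below it, beside 61.7% and 54.0% for all tested genes split the same way. These matches are letters in a window, not sites. Kcna1 and Kcnk10 have no entry in the table, and Kcnt1 has 2 windows.

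Most potassium channel genes were dim on these arrays. Of the 86 members, 21 (24.4%) had a mean over the 6 arrays above 5.81, the median of all valued probe sets, beside 56.5% of all genes tested. The median member stood at a log2 level of 4.9 and the median gene at 6.33. On all 6 arrays 16 members lay above that array's own median, 59 lay above it on no array, and 11 on 1 to 5 arrays. Probe sets differ in how well they hybridise and the values come without detection calls. The order of levels therefore describes the probe sets, and a dim probe set may still read a transcript. The members nearest the line were Kcnc1, Kcnab2 and Kcnh2 just above it (5.86, 5.90 and 5.94) and Kcnj2, Kcnj14 and Kcna2 just below it (5.79, 5.77 and 5.76).

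**Figure D1:**
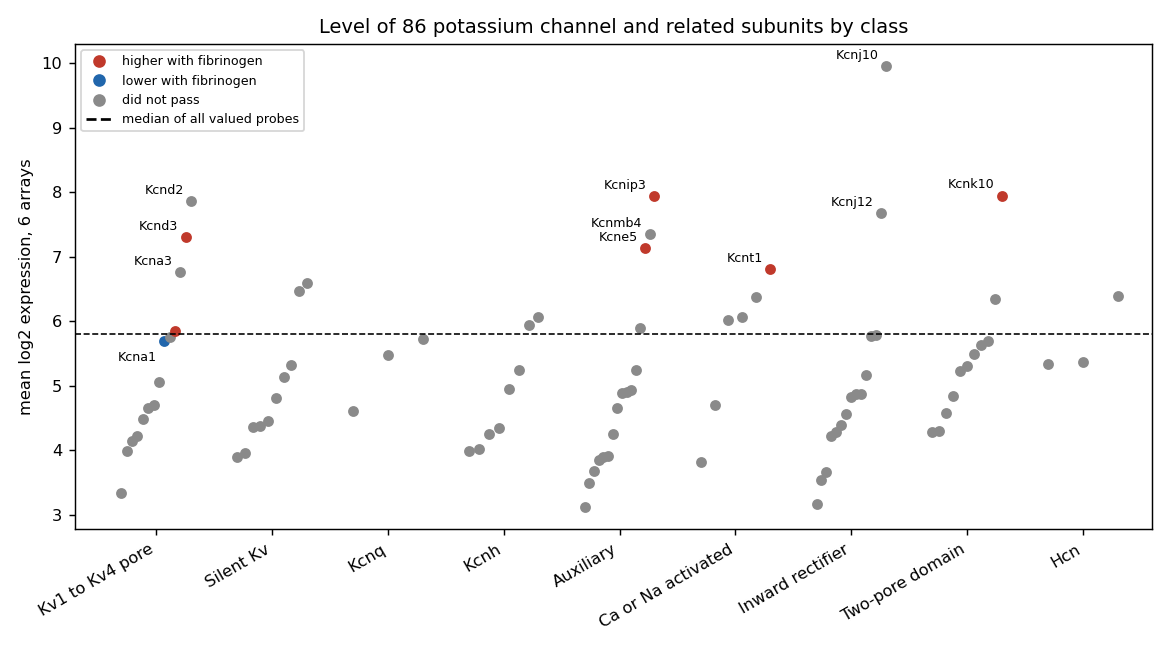
Mean log2 expression over the 6 arrays (vertical axis) of each of the 86 members, grouped by class along the horizontal axis, with the median of all valued probe sets as a dashed line. Of these points 21 lie above the line, Kcnj10 stands alone near the top at 9.96, and the coloured points are the 7 members that passed the test.

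Of the 86 members, 6 were called higher with fibrinogen (6.98%) and 1 lower (1.16%), beside 4.16% and 3% of all genes. In either direction 8.14% of members were called, against 7.16% of all genes, a share near the background. The 6 that rose were Kcnk10, Kcne5, Kcnip3, Kcnt1, Kcnc1 and Kcnd3, and the one that fell was Kcna1. The 6 that rose are among the 21 members above the array median and Kcna1 is below it. Calls of all genes also lay mostly above the array median. Of the 7543 genes above it 496 were called higher and 348 lower, and of the 5812 below it 59 and 53. That line is drawn on the mean of both groups, so the changes themselves bear on the side: Kcnc1 lies above it through its fibrinogen arrays and Kcna1 below it through its fibrinogen arrays. The median change was 0.038 for all members, beside 0.0033 for all genes. For the 21 members above the array median it was 0.16, beside 0.03 for all genes above it. For members below the array median it was -0.03, beside -0.04 for all genes below it. Of all 86 changes 46 were positive and 40 negative, a balance that turned to 40 and 46 once arrays were centred on their medians. The groups did not overlap for 19 members (22.1%), beside 27% of all genes. Fibrinogen was the higher group for 12 of these (14%, beside 15% of all genes) and the lower for 7 (8.14%, beside 12%).

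**Figure D2:**
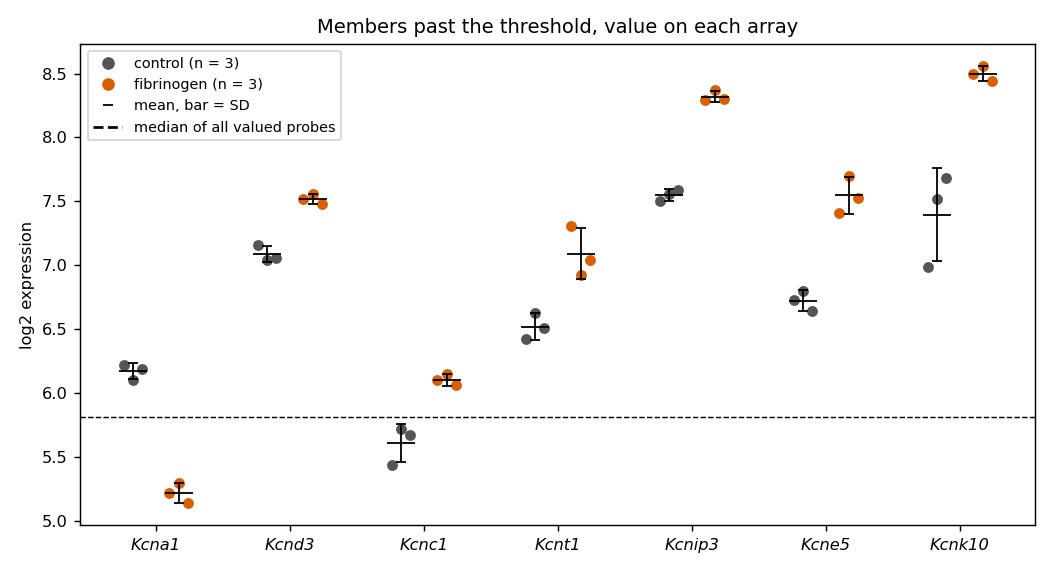
Log2 expression (vertical axis) of the 7 called members on each of the 3 control and 3 fibrinogen arrays, with group means and SD, and the median of all valued probe sets as a dashed line. Kcna1 drops from between 6.10 and 6.22 to between 5.14 and 5.30, across the line, Kcnc1 crosses it upward, and the other 5 lie above it in both groups.

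Among the pore subunits of the Kv1 to Kv4 families (14 members, Kcna to Kcnd), 2 rose, 1 fell and 11 did not pass. Kcna1 encodes Kv1.1, a low-threshold channel that opens near the resting potential. Its probe set (10865732) read 6.22, 6.10 and 6.19 in the control arrays and 5.22, 5.30 and 5.14 in the fibrinogen arrays. Every control value lay above the median of the arrays and every fibrinogen value below it. Kcna1 fell 1.93-fold (log2 fold change -0.95, SE 0.08, adjusted p = 0.00166 in limma).

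Kcna1 lies between Kcna5 and Kcna6 in the RefSeq gene order on chromosome 4, with 0 protein-coding genes between neighbours. Kcna5 (Kv1.5), a delayed rectifier tied to OPC division, read 5.21, 4.97 and 5.05 in control and 5.14, 5.05 and 4.96 in fibrinogen arrays. Kcna6 (Kv1.6) read 4.11, 3.93 and 4.17 in control and 4.33, 3.85 and 3.56 in fibrinogen arrays. Both groups overlapped for either gene, at log2 fold changes of -0.03 (95% interval -0.25 to 0.19) and -0.16 (95% interval -0.60 to 0.29). Whether the change of Kcna1 differed from theirs was not tested.

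A second run of Kv1 genes, Kcna3, Kcna2 and Kcna10, lies side by side on chromosome 2. Kcna3 (Kv1.3), a delayed rectifier also tied to OPC division, read 6.40, 6.66 and 6.79 in control and 6.90, 6.86 and 6.96 in fibrinogen arrays. Kcna2 (Kv1.2), a common partner of Kv1.1 in mixed channels, read 5.55, 5.68 and 5.58 in control and 6.09, 5.94 and 5.74 in fibrinogen arrays. Every fibrinogen value lay above every control value for both, yet neither passed (log2 fold change 0.29, adjusted p = 0.186, and 0.32, adjusted p = 0.131, in limma). Kcna10 overlapped between the groups at 0.18 (95% interval -0.24 to 0.60). Kcna4 (Kv1.4), which gives rapidly inactivating A-type current, read 4.50, 4.60 and 4.61 in control and 4.43, 4.39 and 4.42 in fibrinogen arrays. Its fibrinogen values were the lower ones without overlap, and it did not pass (-0.16, adjusted p = 0.272).

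The Kv4 genes carry A-type current with auxiliary KChIP and DPP proteins. Kcnd3 (Kv4.3; 10818141) read 7.16, 7.04 and 7.06 in control and 7.52, 7.56 and 7.48 in fibrinogen arrays, without overlap. It rose 1.35-fold (log2 fold change 0.43, SE 0.07, adjusted p = 0.0173 in limma). Kcnd2 (Kv4.2), with the brighter probe set, read 7.73, 7.95 and 7.75 in control and 7.94, 7.83 and 7.96 in fibrinogen arrays. The groups overlapped, at 0.10 (95% interval -0.11 to 0.31). Kcnd1 was dim and varied between 4.22 and 4.96 over all arrays.

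Kcnip3 encodes KChIP3, a calcium-binding Kv4 partner also known as the transcriptional repressor DREAM. Its probe set (10849655) read 7.50, 7.56 and 7.59 in control and 8.29, 8.37 and 8.30 in fibrinogen arrays. The groups were far apart compared with the spread within either. It rose 1.71-fold (log2 fold change 0.77, SE 0.07, adjusted p = 0.00253 in limma). The other KChIP genes, Kcnip1, Kcnip2 and Kcnip4, lay below the array median and did not pass, at -0.19, -0.05 and -0.03. The DPP genes of the same complex, Dpp6 and Dpp10, stand outside the symbol rule. Dpp6 read 7.83, 8.23 and 8.14 in control and 8.74, 8.62 and 8.86 in fibrinogen arrays and rose 1.59-fold (adjusted p = 0.0225 in limma). Dpp10 read 6.93, 7.15 and 6.99 in control and 6.46, 6.68 and 6.78 in fibrinogen arrays, lower without overlap, and did not pass (-0.38, adjusted p = 0.0872).

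Kcnc1 encodes Kv3.1, a high-threshold channel that repolarises cells fast. Its probe set (10707113) read 5.44, 5.72 and 5.67 in control and 6.10, 6.15 and 6.06 in fibrinogen arrays. All control values lay below the array median and all fibrinogen values above it. Kcnc1 rose 1.41-fold (log2 fold change 0.49, SE 0.09, adjusted p = 0.0260 in limma). Its relative Kcnc2 (Kv3.2), among the dimmest members, read 3.68, 3.36 and 3.38 in control and 3.22, 3.30 and 3.14 in fibrinogen arrays, the lower values being those of fibrinogen, and did not pass (-0.25, adjusted p = 0.235).

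Kcnk10 encodes TREK-2, a tandem-pore channel that carries background current and responds to stretch, lipids and acid inside the cell. Its probe set (10891520) read 6.99, 7.52 and 7.68 in control and 8.50, 8.56 and 8.44 in fibrinogen arrays. Control 1 was the low array, and the fibrinogen values were close together above all controls. Kcnk10 rose 2.15-fold, the 1 member to change at least 2-fold (log2 fold change 1.10, SE 0.17, adjusted p = 0.0120 in limma). Without control 1 the change was 0.90 (adjusted p = 0.00984). The call was lost without fibrinogen 1 (adjusted p = 0.0567) and without fibrinogen 2 (adjusted p = 0.0548).

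The other 10 tandem-pore genes did not pass. Kcnk13 (THIK-1) was the other one above the array median, at 6.35 ± 0.14 with control and 6.35 ± 0.08 with fibrinogen (SD, n = 3; log2 fold change 0.00, 95% interval -0.22 to 0.23). Kcnk1 (TWIK-1), a weak background channel of glia, read 5.49, 5.55 and 5.52 in control and 6.18, 5.75 and 5.66 in fibrinogen arrays. Its groups did not overlap, fibrinogen 1 stood highest, and it did not pass (0.34, adjusted p = 0.207). Kcnk2 (TREK-1), the close relative of Kcnk10, read 4.46, 4.49 and 4.30 in control and 4.03, 4.22 and 4.34 in fibrinogen arrays, with overlap (-0.22, 95% interval -0.46 to 0.02). Kcnk3 (TASK-1) and Kcnk9 (TASK-3), acid-sensitive background channels, ran from 4.86 to 5.59 and from 4.28 to 4.88 over the arrays and overlapped between groups.

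Of the 15 inward rectifiers 0 passed in limma, and 3 (Kcnj10, Kcnj12 and Kcnj9) had an unadjusted p under 0.05, as did 21.1% of all genes. With a trend in the prior variance Kcnj10 and Kcnj12 passed (adjusted p = 0.037 and 0.0469). Kcnj12 also passed, just under 0.05, without genes below the array median. Kcnj10 encodes Kir4.1, and its probe set (10765740) ranked above 94.5% of all valued probe sets. It read 9.80, 9.93 and 9.87 in control and 10.09, 10.04 and 10 in fibrinogen arrays. The fibrinogen values were all higher, but by little: a 1.13-fold difference (log2 fold change 0.18, 95% interval 0.002 to 0.35, adjusted p = 0.233). Kcnj9 (Kir3.3), its neighbour on chromosome 13, was dimmer and overlapped between groups (0.33, adjusted p = 0.208).

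Kcnj16 (Kir5.1), which forms mixed channels with Kir4.1, read 4.28, 4.08 and 4.12 in control and 5.03, 4.19 and 3.99 in fibrinogen arrays. Fibrinogen 1 stood above the other 5 arrays and the groups overlapped. Kcnj12 (Kir2.2), a strong rectifier, read 7.91, 7.71 and 7.90 in control and 7.57, 7.64 and 7.36 in fibrinogen arrays. It was lower with fibrinogen without overlap and did not pass (-0.32, adjusted p = 0.130). Kcnj2 (Kir2.1) and Kcnj3 (Kir3.1, a G protein-gated channel) overlapped between groups, with ranges over the arrays of 5.64 to 6.04 and 4.67 to 5.22. The other 9 rectifier genes, among them the KATP pores Kcnj8 and Kcnj11, lay below the array median and did not pass.

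Of the 6 calcium- or sodium-activated genes, 1 rose. Kcnt1 encodes Slack, a channel opened by internal sodium. Its probe set (10834373) read 6.42, 6.63 and 6.51 in control and 7.31, 6.92 and 7.04 in fibrinogen arrays, without overlap and with fibrinogen 1 highest. It rose 1.48-fold (log2 fold change 0.57, SE 0.12, adjusted p = 0.0328 in limma). This call was lost without any one of the 6 arrays (adjusted p = 0.0508 to 0.0952). Its relative Kcnt2 (Slick) was dim, read 3.59, 3.48 and 3.70 in control and 3.94, 4.31 and 3.89 in fibrinogen arrays, and did not pass (0.46, adjusted p = 0.0853).

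The large-conductance pore gene Kcnma1 (BK) read 6.26, 6.40 and 6.39 in control and 6.46, 6.23 and 6.52 in fibrinogen arrays and overlapped (0.05, 95% interval -0.18 to 0.29). The small-conductance genes Kcnn1 and Kcnn3 also lay above the array median, at 6.07 and 6.02 over the 6 arrays, with changes of 0.16 and -0.11 that did not pass. Kcnmb4, the BK auxiliary subunit common in brain, read 6.97, 7.28 and 7.13 in control and 7.48, 7.76 and 7.46 in fibrinogen arrays. It was higher without overlap and did not pass (0.44, adjusted p = 0.0753).

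The 16 auxiliary subunit genes (Kcnab, Kcne, Kcnip and Kcnmb) had 2 rises, Kcnip3 and Kcne5. Kcne5 encodes a single-span subunit that lowers current through Kcnq1 channels. Its probe set (10932813) read 6.73, 6.80 and 6.64 in control and 7.41, 7.70 and 7.53 in fibrinogen arrays. The lowest fibrinogen value lay well above the highest control. Kcne5 rose 1.77-fold (log2 fold change 0.82, SE 0.10, adjusted p = 0.00487 in limma). Kcnq1 itself was dim and did not pass (0.08, 95% interval -0.18 to 0.34).

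Kcne4, an inhibitory subunit of Kv1 and Kcnq1 channels, went the other way. It read 5.21, 5.25 and 5.05 in control and 4.88, 4.66 and 4.39 in fibrinogen arrays, lower without overlap and below the array median throughout, and did not pass (-0.53, adjusted p = 0.0616). With the arrays centred on their medians it passed in limma (-0.57, adjusted p = 0.0485). It also passed without the dimmest 25% of genes (adjusted p = 0.0369). With a trend in the prior variance its adjusted p was 0.0401. Kcnab2, a beta subunit of Kv1 channels, stood at 5.92 ± 0.16 with control and 5.87 ± 0.23 with fibrinogen (SD, n = 3).

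No call fell among the 10 silent Kv genes, which encode subunits that act only with other pores, or among the 8 Kcnh, 3 Kcnq and 3 Hcn genes. Of these 24 genes, 2 (Kcnh5 and Hcn2) had an unadjusted p in limma under 0.05, beside 21.1% of all genes. Kcnh5 passed with a trend in the prior variance (adjusted p = 0.0428) and without genes below the array median (adjusted p = 0.0359). Kcng1 and Kcng2 were the silent subunits above the array median, with changes of 0.06 and 0.28. Kcnh5 (Kv10.2, an ether-a-go-go channel) read 6.20, 6.61 and 6.10 in control and 5.88, 5.77 and 5.85 in fibrinogen arrays, lower without overlap, and did not pass (-0.47, adjusted p = 0.0937). Kcnh2 (ERG1) stood at 5.92 ± 0.17 and 5.96 ± 0.23 (SD, n = 3). Hcn2, a cation channel opened by hyperpolarisation, read 6.54, 6.45 and 6.47 in control and 6.36, 6.25 and 6.28 in fibrinogen arrays. It was lower without overlap, by a small step, and did not pass (-0.19, adjusted p = 0.193). The Kcnq genes measured, Kcnq1, Kcnq3 and Kcnq5, changed by -0.08 to 0.08.

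**Figure D3:**
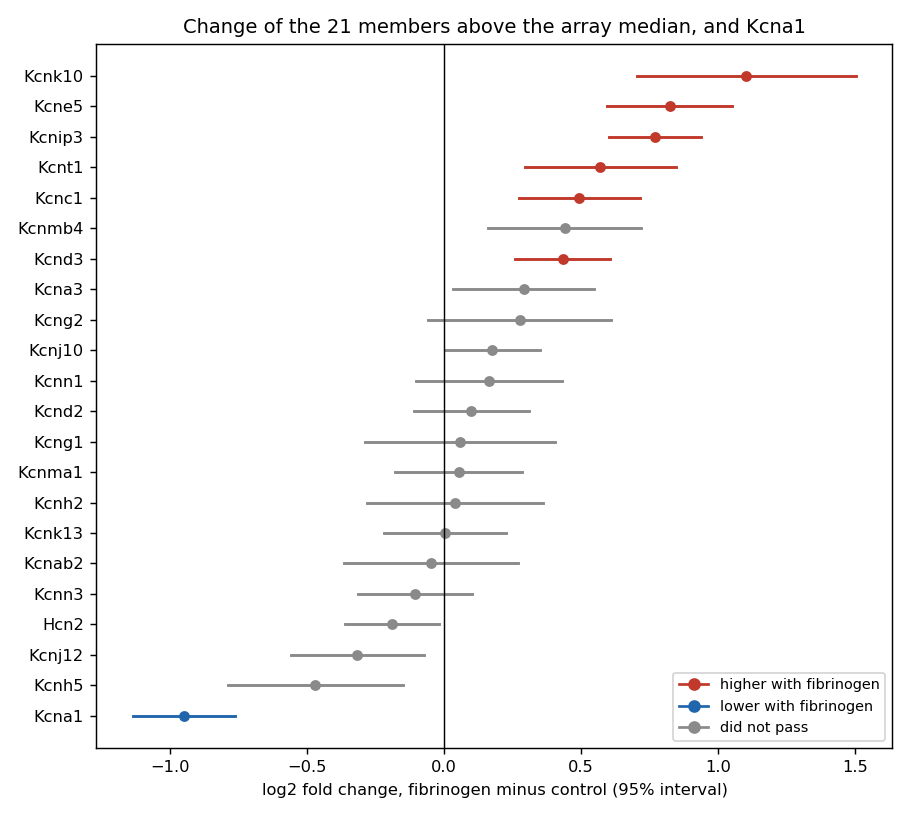
Log2 fold change, fibrinogen minus control, with its 95% interval (horizontal axis) for the 21 members above the array median and Kcna1. Kcnk10 has the largest rise at 1.10 and Kcna1 the largest fall at -0.95, and 15 of the 21 did not pass the test.

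Of 14 measured genes on a list of channels known from progenitors and oligodendrocytes (Kv1, Kir, tandem-pore and BK), 0 passed in limma. An unadjusted p in limma under 0.05 was found for 4 of the 14, beside 21.1% of all genes. Kcnj10 passed with a trend in the prior variance. Of the 14, 3 lay above the array median: Kcnj10, Kcna3 and Kcnma1. The median change of this list was 0.11, beside 0.0033 for all genes. Of the 79 members that did not pass, 48 had a 95% interval inside -0.5 to 0.5, and the intervals of the other 31 reach further. Of these 79 members, 11 had groups without overlap and an unadjusted p in limma under 0.05. Of the 11, 6 were higher (Kcna2, Kcna3, Kcnj10, Kcnk1, Kcnmb4 and Kcnt2) and 5 lower (Hcn2, Kcnc2, Kcne4, Kcnh5 and Kcnj12). Among all 86 members 22.1% did not overlap and 22.1% had such a p, near the 27% and 21.1% of all genes. The share of all genes that meet both was not counted.

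Genes that work beside the channels were read from a list of 44, of which 34 were measured. Of these, 5 rose (14.7%), 2 fell (5.88%) and 27 did not pass, beside 4.16% and 3% of all genes. The list was chosen with earlier results of these data known, so these shares cannot show whether such genes changed more often than others. With 1 array left out 3 to 5 rose and 1 to 2 fell. The median change of the list was -0.058. The sodium pump returns potassium to the cell. Its beta subunit gene Atp1b2 read 10.13, 10.13 and 10.20 in control and 11.06, 10.99 and 11.14 in fibrinogen arrays, a 1.88-fold rise (adjusted p = 0.00166 in limma). Fxyd6, a small regulator of the pump, rose 1.58-fold (adjusted p = 0.00476). The other beta genes Atp1b1 and Atp1b3 were at -0.27 and -0.33 and did not pass (adjusted p = 0.167 and 0.172). Slc12a4 (KCC1), which carries potassium out with chloride, rose 1.40-fold (adjusted p = 0.0267), while Slc12a2 (NKCC1), which carries both in, was at -0.05 (95% interval -0.25 to 0.15).

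Among genes that hold channels in place, Ank3 and Dlg1 fell and Epb41l3 rose. Ank3 (ankyrin G, which gathers Kcnq and sodium channels) read 7.95, 7.93 and 7.90 in control and 7.11, 7.04 and 6.90 in fibrinogen arrays, a 1.88-fold fall (adjusted p = 0.00209 in limma). Epb41l3 (protein 4.1B, a scaffold of the axonal Kv1 complex) rose 1.62-fold (adjusted p = 0.00779). Dlg1 (SAP97, a scaffold that binds Kv1 and Kir2 tails) fell 1.32-fold (adjusted p = 0.0237). The calls of Dpp6 and Slc12a4 were lost without control 3 or any fibrinogen array, and that of Dlg1 without any array other than control 1 (highest adjusted p = 0.0879, 0.101 and 0.0919).

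**Figure D4:**
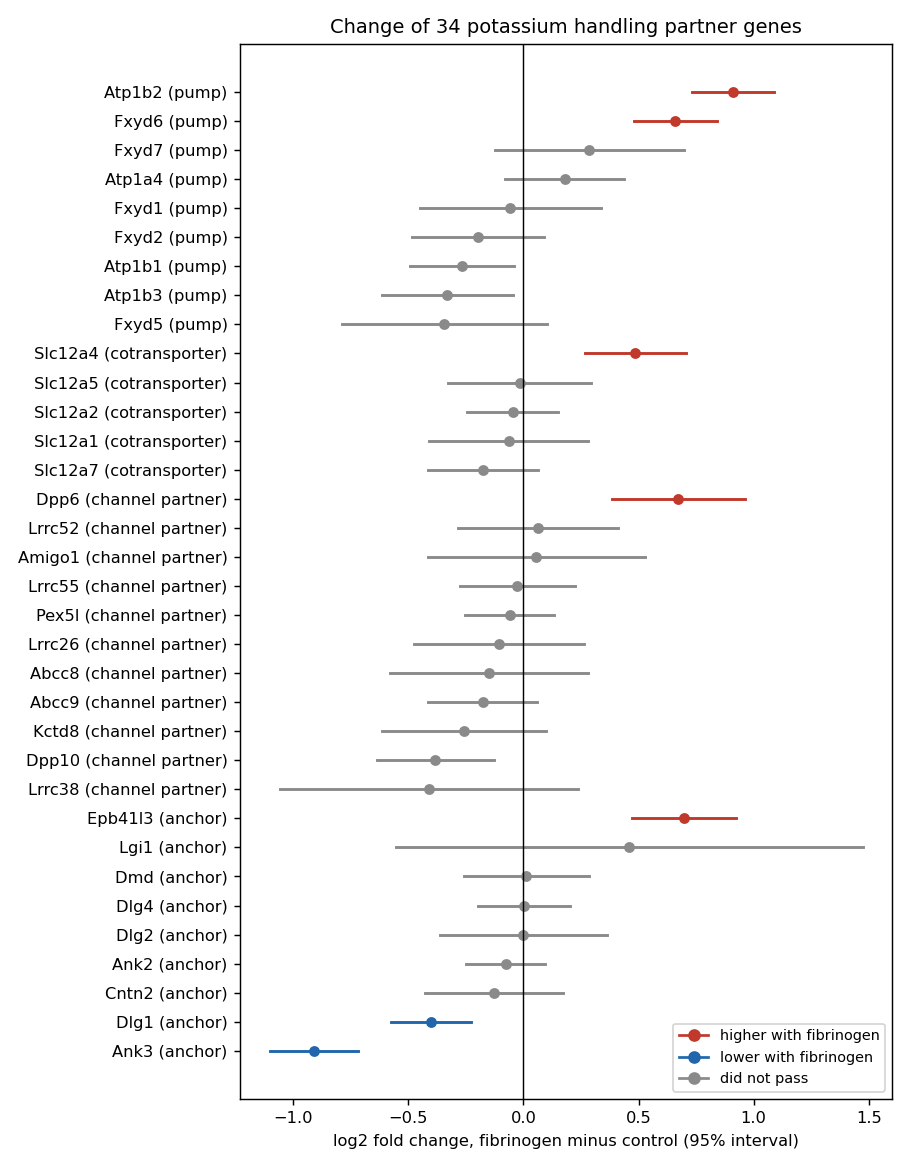
Log2 fold change, fibrinogen minus control, with its 95% interval (horizontal axis) for the 34 measured partner genes, grouped as pump, cotransporter, channel partner and anchor. Atp1b2 rises most at 0.91 and Ank3 falls most at -0.91, and 27 of the 34 did not pass.

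Cell type markers moved with the same contrast. Of 6 progenitor markers 4 rose, and the mean level of the list ran from 9.58 to 9.68 in control and from 10.06 to 10.10 in fibrinogen arrays. Gpr17 (-0.14) and Ptprz1 (0.27) did not pass. Of 5 oligodendrocyte markers 3 fell (9.44 to 9.54 against 9.08 to 9.16). Mag had an adjusted p of 0.00563 in limma, while Cnp and Mbp lay just under the threshold (0.0463 and 0.0468). Mog and Mobp did not pass (-0.12 and -0.22). Marker calls were not followed with arrays left out. Of 7 astrocyte markers 3 rose, Gfap, Slc1a2 and Slc1a3 (list mean 7.68 to 7.74 against 7.97 to 8). The others did not pass: Aqp4, Gja1 and Gjb6 were at -0.24, -0.10 and -0.23 and Aldoc at 0.04, with Gjb6 dim throughout. Of 8 neuron markers 2 rose and 1 fell, and the ranges overlapped (7.06 to 7.20 against 7.04 to 7.18). Of 6 microglia markers 1 fell, Itgam, which was dim (3.40 over the 6 arrays), and 5 of the 6 lay below the array median. The mean of this list was lower without overlap (4.56 to 4.82 against 4.42 to 4.52). Taken singly, 27% of all genes did not overlap. Of the 2 measured markers of the whole oligodendrocyte lineage 1 rose (10.04 to 10.08 against 10.22 to 10.28), and the other, Sox10, did not pass (-0.09). The part of these in the channel results was not tested, and in such bulk samples fewer cells of a type and less RNA per cell cannot be told apart.

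Leaving out each array in turn split the 7 calls. Kcna1, Kcnip3 and Kcne5 passed in all 6 fits (adjusted p up to 0.0156, 0.0178 and 0.0270 in limma). Kcnk10 passed in 4 of the 6 fits. Kcnc1 passed without control 1 or control 2 and was lost otherwise (highest adjusted p = 0.0972). Kcnd3 passed without control 1 and was lost without any other array (highest adjusted p = 0.0748). With the unmoderated test 3 members rose: Kcnip3, Kcne5 and Kcnd3.

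**Figure D5:**
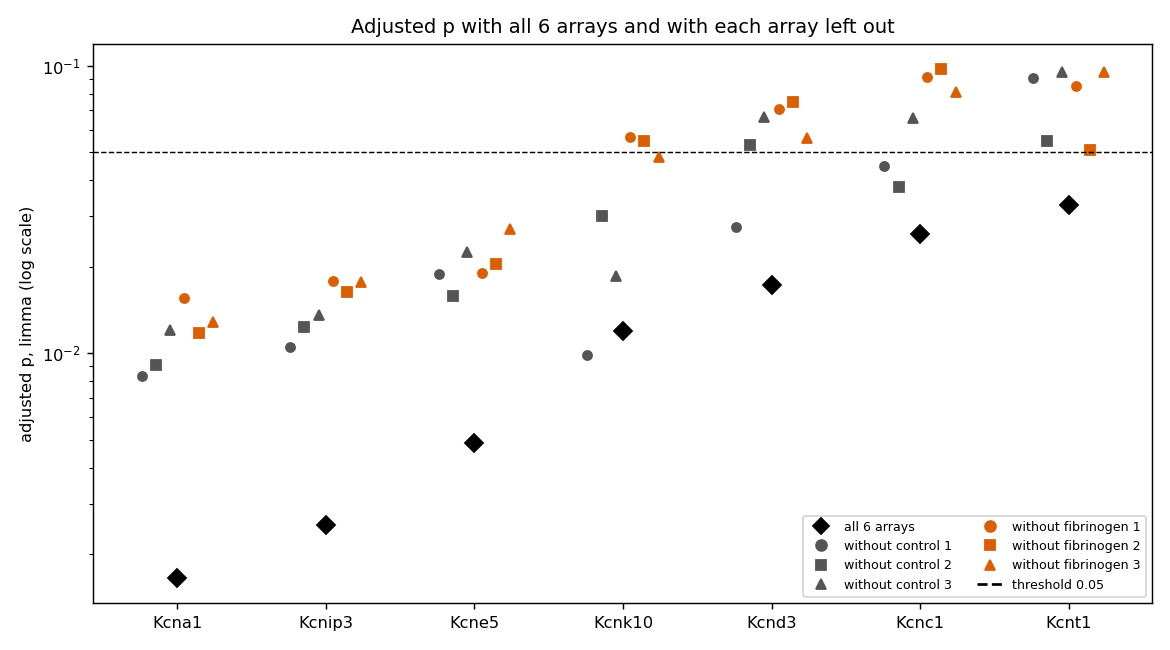
Adjusted p in limma (vertical log axis) of the 7 called members with all 6 arrays (diamonds) and with each control or fibrinogen array left out (other symbols), with the threshold of 0.05 dashed. Kcna1, Kcnip3 and Kcne5 stay under the line in every fit, and Kcnt1 lies above it in all 6 fits with an array left out.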

How the data were processed

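RNA of rat OPCs (3 control and 3 fibrinogen samples) was hybridised to Affymetrix arrays. The authors' deposited log2 values were used as given; per the submitters' processing notes RMA and limma were used, their settings and the build being not given in the sources used here. RMA compresses changes of dim probe sets, and the number of arrays limits the precision. Of 26312 probe rows, 23631 had values. Probe sets with 1 symbol in the platform annotation (14083) were kept, with the highest mean per gene, giving 13355 genes. The test of fibrinogen against control was limma's (lmFit, eBayes; version 3.58.1 under R 4.3.3), two-sided, without covariates or a filter on dim genes, and was tested on simulated data. Named are members past the threshold, the 10 brightest, a list of glial channels, members without overlap at an unadjusted p under 0.05, and all above the array median; of partner genes, those past the threshold and a few with the next smallest p or of the same family. Alternatives were the scaling, filters on dim genes, the probe rule, the variance model, the replicate block and leaving out arrays. The members and lists were chosen with earlier results of these data known.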

Additional observations from a re-analysis of the deposited data

How the results depend on the processing

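No result changed sign among those past the threshold. The count of 6 members higher was 3 with the unmoderated test, and 2 to 5 with 1 array left out; the 1 member lower was 2 with arrays centred on their medians, 2 without the dimmest 25% of genes, 2 without genes below the array median (which leaves out Kcna1) and 4 with a trend in the prior variance, and 1 with any array left out. The members gained were Kcne4, Kcnh5 and Kcnj12. Kcnj10 passed with the trend alone (adjusted p = 0.037), and Kcnmb4 with the trend and both filters. The trend gave 8 members higher. Members above the array median numbered 15 with the median of the genes represented and 20 to 23 under the other settings. Of all genes, 887 were higher and 621 lower without genes below the array median, 947 and 692 with the trend, and 268 and 232 with the unmoderated test; with 1 array left out, 208 to 379 were higher and 150 to 239 lower. Of partner genes, 3 were higher with the unmoderated test and 4 lower with the trend; 3 to 5 were higher and 1 to 2 lower with 1 array left out. The cause was not tested, other than that fewer genes or arrays entered the fits that leave them out.

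The titles share replicate numbers. Deviations of same-numbered samples from their group means had correlations of 0.0202, -0.135 and -0.074. With 3 arrays a group these deviations are tied to one another, so the correlations cannot decide whether same-numbered samples shared a preparation. The labels do not say. With the replicate block, 3 members were higher (Kcnk10, Kcnip3 and Kcne5) and 1 lower (Kcna1), 3 partner genes were higher and 1 lower, and 199 of all genes were higher and 144 lower. Over the 43 genes followed, 527 of 580 values under alternatives kept their side of the threshold, 42 lost the call and 11 gained one. Most of the 43 were not called in the main fit. Only the 7 called members and the partner genes that rose (5) or fell (2) could lose a call, so all 42 losses fell on them. How far dim probe sets lie above background is unknown.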
